A study of Homo sapiens with 8 samples.

Results

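The 2 MED1 ChIP-seq libraries of the series are described here as a map of Mediator on its own. Both were made from untreated GM12878 cells, an established lymphoblastoid line grown from B lymphocytes, with an antibody against MED1, and each list of peaks was called against 1 pool of 2 whole cell extract (WCE) libraries. The members are all peaks of the 2 deposited lists on chromosomes 1 to 22 and X, 18131 in replicate 1 and 45046 in replicate 2, or 63177 of the 224694 peaks in the 6 lists of the series. The other 4 lists are those of NIPBL, which loads cohesin, and SMC1A, a cohesin subunit, in the same untreated cells with the same control. Whether the replicates are independent cultures is not stated, and differences between them may be technical.

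Mediator is a large complex that carries signals from transcription factors bound at enhancers and promoters to RNA polymerase II. MED1 is the subunit through which many of these factors, nuclear receptors among them, contact the complex. In B cells and many other cell types MED1 signal gathers at enhancers that lie close together, and stitching such sites at a fixed distance and ranking them by signal is a usual way to list the strongest enhancer domains.

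The strength of a peak is given as fold enrichment, the authors' value for the signal at the summit over the local control. Width is the length of the called interval. A peak counts as found in both replicates when it overlaps a peak of the other list by at least 1 bp. Positions are 1-based on hg19. Regions carry positions instead of gene names, because no annotation of that build was used. Each class of peaks within a list comes from 1 library and its peaks are not replicates, so medians and ranges are given without tests. Intervals are exact 95% binomial (Clopper-Pearson) and cover counting error only.

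Nearly all peaks of the shorter list recurred, while most of the longer list was called in 1 library. Of replicate 1, 99.0% of peaks were found in replicate 2 and 183 were not. Of replicate 2, 33.5% or 15111 peaks were found in replicate 1 (interval 33.1 to 34.0), and 29935 were called in replicate 2 alone. With replicate 2 cut to the number of peaks in replicate 1, the shares were 84.3% of replicate 1 and 68.7% of replicate 2 when cut by fold enrichment, and 86.9% and 71.0% when cut by p-value. The overlapping peaks merged into 15007 regions found in both. The overlaps were large rather than marginal. A replicate 2 peak found in both shared a median of 356 bp with replicate 1, and 34 such peaks shared under 50 bp. Among the replicate 1 peaks that overlapped replicate 2, 89.2% lay wholly inside a replicate 2 peak, while at the median 53.1% of a recurrent replicate 2 peak was covered. On the other side of the rule, 633 of the 29935 peaks of replicate 2 alone lay within 200 bp of a replicate 1 peak without touching it, the nearest at 2 bp. The 2 shares lay closer together for the other proteins, at 55.6% and 79.3% for NIPBL replicates 1 and 2, and 92.0% and 75.6% for SMC1A. With 1 pair of libraries per protein that order has no test.

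The longer list had the lower background estimate. Fold enrichment and p-value together fix the number of fragments at a summit and the control estimate there, and both were solved for at least 99.8% of peaks in each MED1 list. The lowest control estimate, which scales with the number and length of a library's fragments, was 2.37 in replicate 1 and 1.79 in replicate 2, or 0.755 times as high in replicate 2. The read totals were not used here. Peaks of replicate 1 had a median of 31 fragments at the summit over a control estimate of 7.50, and peaks of replicate 2 a median of 28 over 5.19. Among the solved peaks the fewest fragments at a summit were 11 in replicate 1 and 8 in replicate 2. Weaker binding lies under the authors' threshold and was not analysed here.

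Recurrent peaks were the stronger ones. Within replicate 2, peaks found in both had a median fold enrichment of 7.59 (quartiles 5.89 and 10.2), against 4.19 (3.51 and 5.06) for peaks of replicate 2 alone, a difference of 3.40. The 2 distributions overlapped little. Of the peaks of replicate 2 alone, 2.35% exceeded the median of the recurrent ones, and 4.80% of the recurrent peaks lay under the median of replicate 2 alone. In fragments, recurrent summits had a median of 51 and summits of replicate 2 alone 23, with median control estimates of 5.66 and 4.72. The difference in strength was therefore larger in the ChIP signal than in the control. A −log10 q of 5 or more was reached by 98.6% of recurrent peaks (98.4 to 98.7) and by 71.1% of peaks of replicate 2 alone (70.6 to 71.6).

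**Figure D1:**
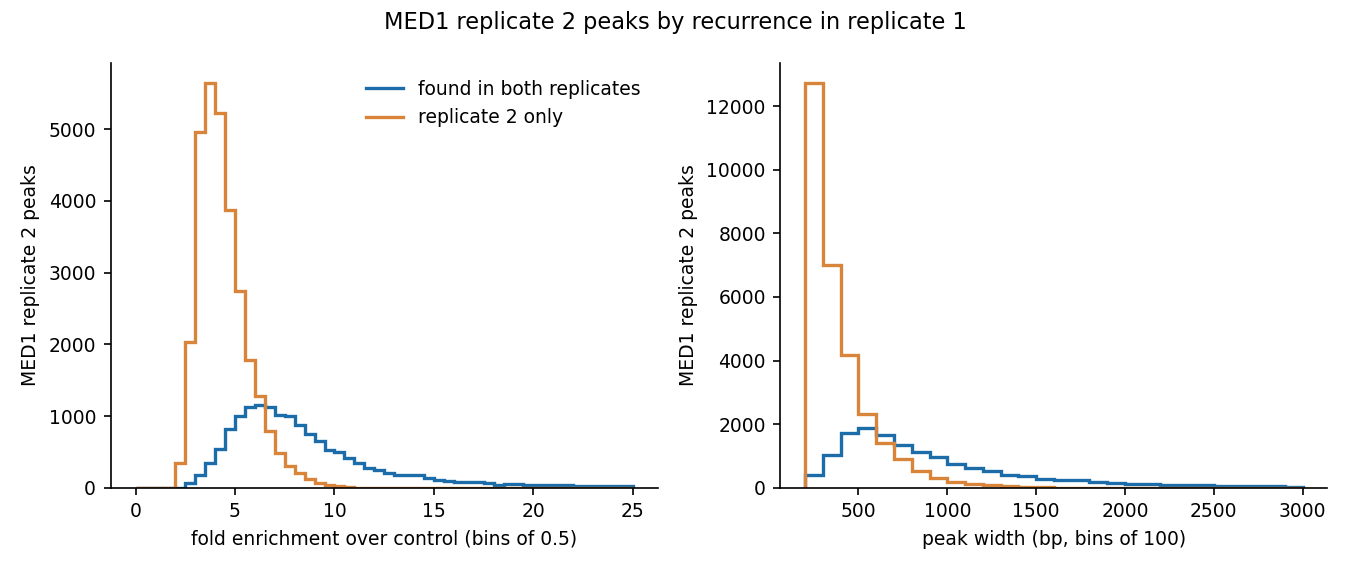
Number of MED1 replicate 2 peaks by fold enrichment over the control (left, bins of 0.5) and by width in bp (right, bins of 100), with peaks found in both replicates in blue and peaks of replicate 2 alone in orange. The blue curves lie to the right of the orange ones in both panels, with medians of 7.59 against 4.19 in fold and 760 against 327 bp in width; peaks beyond the right edges are not drawn.

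Recurrence rose steadily with strength. In the weakest decile of replicate 2, with fold enrichments up to 3.23, 2.84% of peaks were found in replicate 1 (2.38 to 3.37). The share passed the list-wide 33.5% in decile 7 (38.1%, 36.7 to 39.5), reached 81.1% in decile 9 (80.0 to 82.3) and 98.4% in decile 10 (97.9 to 98.7). No step of the series went down. Peaks of replicate 2 with a fold enrichment of 6.0 to 6.5 were found in replicate 1 in 47.2% of cases and those of 6.5 to 7.0 in 58.6%. Between 11 and 11.5 the share was 99.4%.

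Recurrent peaks were also the wider ones. Their median width in replicate 2 was 760 bp (quartiles 533 and 1163), against 327 bp (248 and 456.5) for peaks of replicate 2 alone, a ratio of 2.32. Widths above 1 kb were held by 32.7% of recurrent peaks (32.0 to 33.5), against 1.77% (1.63 to 1.93) of peaks of replicate 2 alone. Above 2 kb the counts were 1219 and 8. The shortest width, 200 bp, was held by 14 recurrent peaks and by 1398 peaks of replicate 2 alone. The recurrent peaks covered 15.5 Mb and the more numerous peaks of replicate 2 alone 11.6 Mb. By decile of width, the share found in replicate 1 was 1.73% in the narrowest (200 to 223 bp) and 92.7% in the widest (from 1103 bp).

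**Figure D2:**
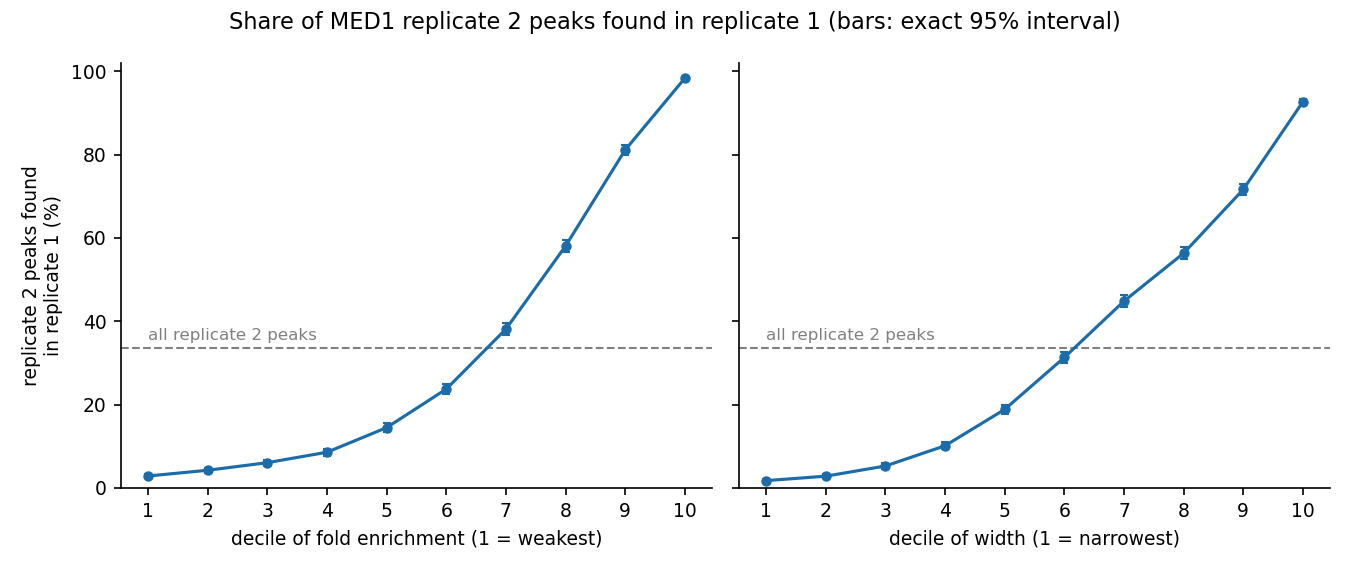
Share of MED1 replicate 2 peaks found in replicate 1, in percent, for each decile of fold enrichment (left) and of width (right). Bars are exact 95% intervals and the dashed line is the share over all replicate 2 peaks, 33.5%. The share climbs at every step, from 2.84% to 98.4% by fold and from 1.73% to 92.7% by width.

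Strength and width each went with recurrence when the other was held in a narrow window. Among replicate 2 peaks with a fold enrichment of 5 to 6, the widest tertile (median 788 bp) was found in replicate 1 in 53.6% of cases (51.5 to 55.7), against 10.5% (9.25 to 11.8) in the narrowest tertile (median 301 bp). The median fold enrichments of these 2 tertiles were 5.50 and 5.36. At a fold enrichment of 8 to 9 the shares were 96.6% in the widest and 66.5% in the narrowest tertile. Conversely, among peaks 500 to 600 bp wide, 78.4% of the strongest tertile (median fold enrichment 8.02) were found in replicate 1 (76.2 to 80.5), against 15.1% (13.3 to 17.1) of the weakest tertile (median 3.99). Among peaks of 900 to 1100 bp these shares were 98.5% and 50.5%. A wider peak has more room for an overlap under the 1 bp rule, which these windows do not remove. With summits at most 200 bp apart as the rule, the median width of recurrent peaks was 2.20 times that of the others. Fold enrichment was not held in that comparison.

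At the regions found in both, signal stood higher in replicate 2 almost throughout. Fold enrichment at the strongest peak of the region was greater in replicate 2 at 14789 of the 15007 regions and greater in replicate 1 at 218. The ratio of replicate 2 to replicate 1 had a median of 1.96 (10th and 90th percentiles 1.36 and 2.62). It hardly moved with strength in replicate 1. In the lowest quintile of replicate 1 fold enrichment the medians were 2.87 in replicate 1 and 5.75 in replicate 2, with a median ratio of 2.05. In the highest quintile they were 6.51 and 14.1, with a median ratio of 2.06, and the 3 quintiles between had ratios of 1.87 to 1.90. Replicate 1 fold enrichment is also the divisor of the ratio. These quintiles therefore do not show how the ratio ran with strength in replicate 2. By region width the ratio went from 1.68 at regions up to 500 bp to 2.14 at regions above 2 kb and up to 5 kb. Across the 15007 regions, Spearman's rho between the replicates was 0.712 and Pearson's r of the log2 values 0.803. These are descriptions over regions that share 2 libraries and 1 control. The lowest control estimate was 0.755 times as high in replicate 2, and its part in the ratio was not tested.

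The 5 strongest regions, by the mean percentile of fold enrichment over both lists, lay on 2 chromosomes. The first, on chromosome 1 from 17222309 to 17223508, had fold enrichments of 35.4 in replicate 1 and 53.3 in replicate 2. Chromosome 6 from 27796999 to 27799155 followed with 28.6 and 69.2, the highest value of either list. Both were single peaks in each replicate, with summits 41 and 44 bp apart. The next lay on chromosome 1 from 28974325 to 28975919 (34.0 and 49.2), on chromosome 6 from 26103696 to 26105398 (29.8 and 49.1) and on chromosome 6 from 26029877 to 26034802 (28.3 and 49.7). These 3 regions had summits 26, 11 and 5 bp apart. All of the 5 were far above the region medians of 3.91 in replicate 1 and 7.60 in replicate 2.

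The 3 regions on chromosome 6 lay on the short arm, the arm that carries the largest cluster of histone genes. After these values were seen, the stretch of chromosome 6 from 26 to 28 Mb was examined as a whole. It held 62 regions found in both, and 24 of these belonged to the strongest 1% of all regions, a set of 151. Chromosome 6 as a whole held 27 of the 151, or 2.85% of its regions. Chromosome 1 also held 27, or 1.88% of its regions. The median fold enrichments of the 62 regions were 6.39 in replicate 1 and 11.5 in replicate 2. The share of replicate 2 peaks in the stretch that were found in replicate 1 was 35.4% (28.4 to 42.8), close to the list-wide 33.5%, so its regions were stronger than most while its recurrence was near that of the list. Across all 151, the median width was 3140 bp, 46 were wider than 5000 bp and 6 were 1000 bp wide or less.

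Peaks missing from the other replicate included few strong ones. In the strongest decile of replicate 2, 74 peaks of 4504 were called in replicate 2 alone, with fold enrichments of 9.57 to 15.4. They were narrow for that decile, where the recurrent peaks had a median width of 1124 bp and those of replicate 2 alone 468 bp. The recurrent peaks of the decile had a median of 85 fragments at the summit and a median control estimate of 5.66, against 45 and 3.42 for those of replicate 2 alone. The strongest lay on chromosome 12 from 131464386 to 131464804, with a fold enrichment of 15.4 from 58 fragments, and its nearest replicate 1 peak was 8824 bp away. The next lay on chromosome 8 from 39818595 to 39819060 (13.5, nearest replicate 1 peak at 275975 bp) and on chromosome 16 from 9226325 to 9227224 (13.2, at 2517 bp). The last 2 lay on chromosome 2 from 114681189 to 114681554 (12.3, at 32499 bp) and on chromosome 19 from 13318623 to 13319590 (12.3, at 39674 bp).

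The 183 peaks of replicate 1 alone were weak and narrow. The replicate 1 peaks found in both had a median fold enrichment of 3.82 and a median width of 344 bp, against 3.37 and 219 bp for replicate 1 alone. The median number of fragments at the summit was 31 in peaks found in both and 19 in replicate 1 alone. The strongest, on chromosome 13 from 43294910 to 43295131, had a fold enrichment of 5.83 and lay 90705 bp from the nearest replicate 2 peak. The next lay on chromosome 21 from 32662071 to 32662336 (5.82) and on chromosome 22 from 30194294 to 30194545 (5.33). Of the 183, 36 lay within 200 bp of a replicate 2 peak.

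The summits of both replicates fell close together. Each deposited peak has 1 summit, so the summits of a region are the peaks it merges. The nearest summits of replicates 1 and 2 were a median of 42 bp apart (quartiles 18 and 86), and 79.3% of regions had summits within 100 bp (78.7 to 80.0). At 10 bp the share was 15.1% and at 200 bp 92.4%. The offset had no side, as replicate 2 minus replicate 1 had a median of 1 bp at regions with 1 summit in each. The distance did not run one way with region width. Its median was 37 bp at regions up to 500 bp, 43 bp above 500 bp and up to 1 kb, 47 bp up to 2 kb, 36 bp up to 5 kb and 28 bp at the 155 regions over 5000 bp. Summits lay within 100 bp at 87.8% of the narrowest regions (86.6 to 89.0) and at 87.7% of the broadest (81.5 to 92.5). At the strongest 1% of regions the median distance was 16 bp. In narrow regions the width itself bounds the distance, and at those up to 500 bp all nearest summits lay within 330 bp. Broad regions can hold several summits, so the nearest pair has more to choose from. The broadest were also stronger, with a median replicate 1 fold enrichment of 10.9 against 3.59 in the narrowest. The shares of narrow and broad regions are therefore not on equal terms. Between the strongest summits of each replicate the median distance over all regions was 44 bp, and at 186 regions these were over 1 kb apart.

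**Figure D3:**
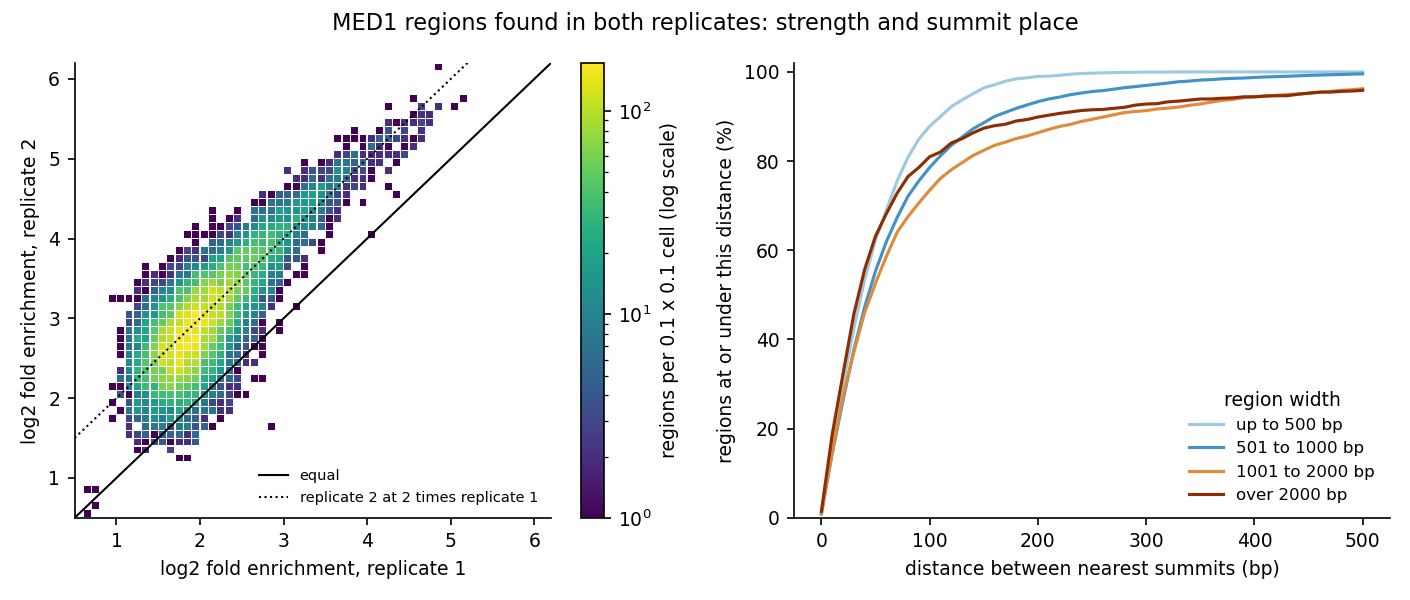
Left, log2 fold enrichment in replicates 1 and 2 at the 15007 MED1 regions found in both, as the number of regions per cell on a log colour scale; most lie around the dotted line, where replicate 2 is 2 times replicate 1, and 218 lie under the solid line of equal values. Right, share of regions, in percent, whose nearest summits lie at or under a given distance in bp, by region width; all curves rise steeply over the first 100 bp, which holds 79.3% of all regions.

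Replicate 1 split broad regions that replicate 2 called as 1 peak. In 12855 regions each replicate had 1 summit. There were 2 or more replicate 1 summits in 14.0% of regions (13.5 to 14.6) but 2 or more replicate 2 summits in 0.680% (0.555 to 0.824). Replicate 1 had more summits than replicate 2 at 2072 regions and fewer at 48. The split grew with width, in part by construction, as peaks of at least 200 bp leave little room for 2 in a narrow region. No region up to 500 bp had 2 replicate 1 summits, while 26.3% of those above 1 kb and up to 2 kb (24.9 to 27.8), 74.9% of those above 2 kb and up to 5 kb (72.2 to 77.5) and 91.6% of those over 5000 bp (86.1 to 95.5) did. Regions over 5000 bp averaged 4 replicate 1 peaks and 1.06 replicate 2 peaks. The widest region, on chromosome 14 from 22943466 to 22964223, was 1 peak of 20758 bp in replicate 2 and 11 peaks in replicate 1, and its strongest summits were within 25 bp of each other (fold enrichment 16.0 in replicate 1 and 35.7 in replicate 2). The second widest, on chromosome 21 from 26932133 to 26947150, held 4 replicate 1 peaks, and the third, on chromosome 8 from 128216479 to 128230889, held 5.

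Most summits lay near the centre of their peak. The central tertile of the peak held 66.7% of summits of recurrent replicate 2 peaks (65.9 to 67.5) and 67.2% of summits of replicate 2 alone (66.7 to 67.8). Within a window of width the classes parted. Among peaks above 400 and up to 600 bp wide, 83.6% of recurrent summits lay in the central tertile (82.4 to 84.8), against 64.9% (63.7 to 66.1) of summits of replicate 2 alone. These 2 classes had median fold enrichments of 6.74 and 4.61, so strength was not held equal. In replicate 2 peaks over 2 kb the share was 42.7% (39.9 to 45.5), against 72.7% (72.1 to 73.3) in peaks up to 400 bp. Summits within the outer 10% at either end made up 0.457% of recurrent peaks and 1.49% of peaks of replicate 2 alone.

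Cohesin and its loader, mapped with other antibodies in the same cells, were met more often by recurrent MED1 peaks. A NIPBL region found in both NIPBL replicates overlapped 49.1% of recurrent peaks (48.3 to 49.9), against 9.72% (9.39 to 10.1) of peaks of replicate 2 alone. For SMC1A the shares were 52.0% (51.2 to 52.8) and 22.9% (22.5 to 23.4). Among peaks above 400 and up to 600 bp wide the NIPBL shares were 42.1% (40.5 to 43.7) and 12.2% (11.4 to 13.0), and the SMC1A shares 44.8% (43.1 to 46.4) and 24.0% (22.9 to 25.0). The median fold enrichments of these width-matched classes were 6.74 and 4.61. Of the 74 strongest-decile peaks of replicate 2 alone, 33 overlapped NIPBL and 38 SMC1A. Of the 183 peaks of replicate 1 alone, 13 (7.10%) and 23 (12.6%) did, with no share over all replicate 1 peaks to set beside them. In the strongest decile the NIPBL share was 78.7% of recurrent peaks (77.5 to 79.9), against 44.6% (33.0 to 56.6) of peaks of replicate 2 alone. The SMC1A shares there were 75.2% (73.9 to 76.5) and 51.4% (39.4 to 63.1). Within that decile the classes still differed, with median widths of 1124 and 468 bp and medians of 85 and 45 fragments at the summit. All lists share the control pool, so co-binding and signal common to every ChIP library cannot be told apart.

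MED1 regions lay in groups. Joining regions at most 12500 bp apart gave 9228 stretches, of which 6381 were single regions and 2847 held 2 or more. The grouped stretches contained 57.5% of all regions (56.7 to 58.3). There were 378 stretches of 5 or more regions, with 16.7% of all regions (16.1 to 17.4), and 36 of 10 or more. The largest number in a stretch was 17. Stretches of 2 or more spanned a median of 8217 bp, and 30 stretches spanned more than 50 kb. Regions in larger groups were stronger and wider. With each region given the fold enrichment of its strongest peak, the median of the mean per region was 3.72 in replicate 1 and 6.97 in replicate 2 for single regions, 4.30 and 8.69 in stretches of 3 or 4, and 5.55 and 11.6 in stretches of 10 or more. The median of the mean region width per stretch was 685 bp for single regions and 1388 bp in stretches of 10 or more, where regions covered a median of 34.0% of the span.

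A small number of stretches held much of the signal. Ranked by the fold enrichment summed over all peaks of a stretch, the first 5% or 462 stretches held 27.8% of the total in replicate 1 and 25.8% in replicate 2, a mean of 26.8% ± 1.46 (SD, n = 2). On the curve of summed fold enrichment against rank, with both axes scaled to 1, 527 stretches in replicate 1 and 577 in replicate 2 lay past the point of slope 1, a mean of 552 ± 35.4 (SD, n = 2). That point fell at a summed fold enrichment of 24.3 in replicate 1 and 39.1 in replicate 2. The stretches past it were 5.71% and 6.25% of all stretches, and held 19.1% and 20.8% of regions and 30.0% and 29.4% of summed fold enrichment. They had a median of 5 regions in each replicate and median spans of 20462 and 20166 bp. Single regions past the point numbered 9 in replicate 1 and 4 in replicate 2. The sum grows with the number of peaks by construction, and in replicate 1 a split region adds several. The widest region alone gave 69.2 of the 235 summed in replicate 1 over its stretch. With only the strongest peak of each region summed, 486 stretches in replicate 1 and 570 in replicate 2 lay past the point, of which 429 and 570 also did so by all peaks. The mean count was 847.5 when stitched at 5 kb and 316.5 when ranked by fold times width, and 1230 stretches lay past the point when all peaks of replicate 2 were stitched without replicate 1.

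The rankings of the 2 replicates shared most of their upper end. Of the stretches past the point, 460 were the same in both, which is 87.3% of those of replicate 1 and 79.7% of those of replicate 2. Of the first 10 stretches 8 were shared, and of the first 100, 75. Spearman's rho of summed fold enrichment was 0.830 over all 9228 stretches and 0.558 over the 6381 single regions. Both describe stretches that were defined with the peaks of both libraries, as do the counts and SDs above. With only the strongest peak of each region summed, 475 stretches lay past the point in both and rho over all stretches was 0.855. Under either sum a stretch holds the same regions in both rankings, so their number is shared by construction.

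**Figure D4:**
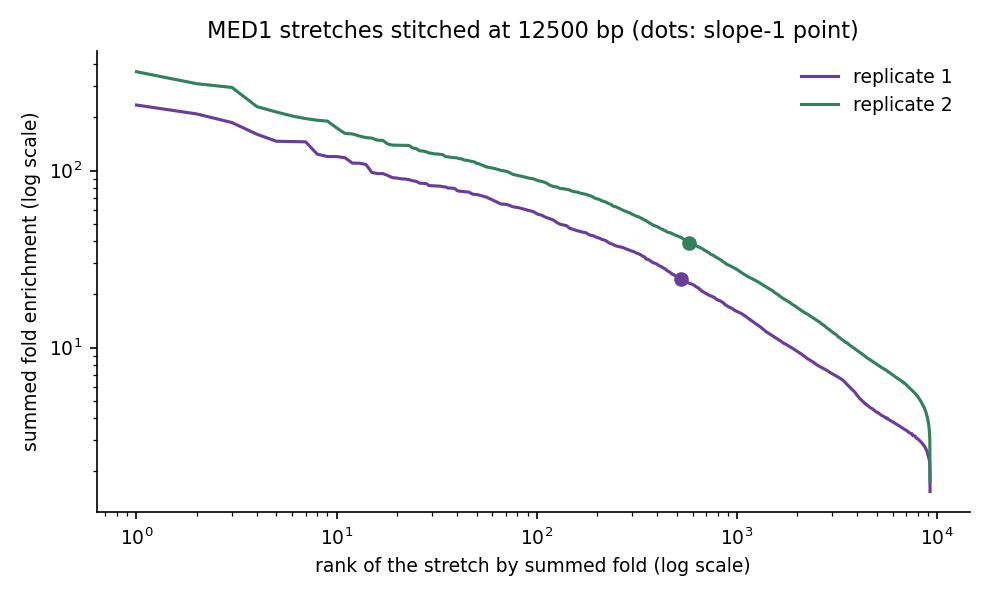
Summed fold enrichment of MED1 stretches (regions found in both replicates, joined at up to 12500 bp) against their rank in replicate 1 and in replicate 2, both axes on log scales. Dots mark the slope-1 point of the linear curve, at rank 527 with a sum of 24.3 in replicate 1 and at rank 577 with a sum of 39.1 in replicate 2. The 2 curves run nearly parallel.

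The first stretch by mean rank lay on chromosome 6 from 26155330 to 26254031. It held 12 regions and had summed fold enrichments of 209 in replicate 1 and 363 in replicate 2, ranks 2 and 1. Next came chromosome 14 from 22933108 to 23039670, which had the most regions, 17, and the longest span, 106563 bp, with sums of 235 and 296. It contains the widest MED1 region. The third, on chromosome X from 12964872 to 13048993, held 12 regions (187 and 215). The fourth, on chromosome X from 130862217 to 130965404, held 16 regions and ranked 7 in replicate 1 but 2 in replicate 2 (146 and 310). Its regions covered 17998 bp of a 103188 bp span, the least of the 10 in total. Ranks 5 and 9 lay on chromosome 6 again, from 27763475 to 27808085 with 7 regions (146 and 230) and from 26020397 to 26057671 with 6 regions (110 and 193). The sixth lay on chromosome 9 from 132749342 to 132816427 with 16 regions, the seventh on chromosome 4 from 84132947 to 84206269 with 15, the eighth on chromosome 12 from 11870282 to 11937124 with 12, and the tenth on chromosome 14 from 68714993 to 68781117 with 13. Of the first 100 stretches, 14 lay on chromosome 1, which held 9.76% of all stretches, and 13 on chromosome 6, which held 5.97%.

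Recurrent peaks lay closer to each other than peaks of replicate 2 alone lay to them. The median distance to the nearest recurrent peak was 7296 bp from another recurrent peak and 14848 bp from a peak of replicate 2 alone. To the nearest of their own, more numerous class, peaks of replicate 2 alone had a median distance of 4925 bp. When all replicate 2 peaks were stitched at 12500 bp, 19072 stretches formed and 8663 of them held a recurrent peak. Those contained 50.8% of the peaks of replicate 2 alone (50.2 to 51.4). Single peaks made up 18.2% of recurrent peaks (17.6 to 18.9), against 25.0% (24.5 to 25.5) of peaks of replicate 2 alone. Strength hardly differed with nearness in this class. Peaks of replicate 2 alone within 12500 bp of a recurrent peak numbered 14184 and had a median fold enrichment of 4.07, against 4.23 for the 15751 farther away.

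MED1 regions were most dense on chromosomes 19 and 17. Lengths were taken as the end of the last peak in any of the 6 lists, 3033 Mb in all, over which regions found in both averaged 4.95 per Mb. Gaps in the sequence of the build were not subtracted, which lowers the density of chromosomes with long gaps. Chromosome 19 had 11.9 regions per Mb (705 regions) and chromosome 17 had 10.4 (841 regions). By these lengths the lowest densities were 2.35 on chromosome X, 2.70 on chromosome 13 and 2.76 on chromosome 4. Chromosome 19 thus exceeded chromosome X 5.08-fold. That ratio was 5.09 for all peaks of replicate 1 and 4.81 for all peaks of replicate 2, so each list alone gave a spread of similar size. Over the 23 chromosomes the densities of the 2 lists had a Spearman's rho of 0.966. The order is not particular to MED1, as NIPBL and SMC1A regions were also densest on chromosomes 19 and 17 and least dense on X. On chromosomes 19, 17 and X the densities per Mb were 7.60, 5.88 and 1.90 for NIPBL and 30.1, 27.1 and 10.5 for SMC1A. The ratio of the highest to the lowest chromosome was 3.99 for NIPBL regions and 2.86 for SMC1A regions, a difference from MED1 that was not tested.

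Between whole chromosomes recurrence varied less than density. The share of replicate 2 peaks found in replicate 1 ran from 30.3% on chromosome X to 39.1% on chromosome 21, around the 33.5% of all. The interval excluded 33.5% on 2 of the 23 chromosomes, which were compared without adjustment. On chromosome 21 it was 35.0 to 43.4 and on chromosome X 27.7 to 32.9. Peaks lie in groups and are not replicates, so these intervals are too narrow to call either chromosome different. Chromosome 21 also had the widest regions, with a median of 904 bp, against 724 to 797 bp on the other 22. Chromosomes 19 and 17, the 2 densest, had shares of 32.0% and 35.4%. Median fold enrichment of recurrent replicate 2 peaks lay between 7.14 on chromosome 11 and 8.12 on chromosome X.

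**Figure D5:**
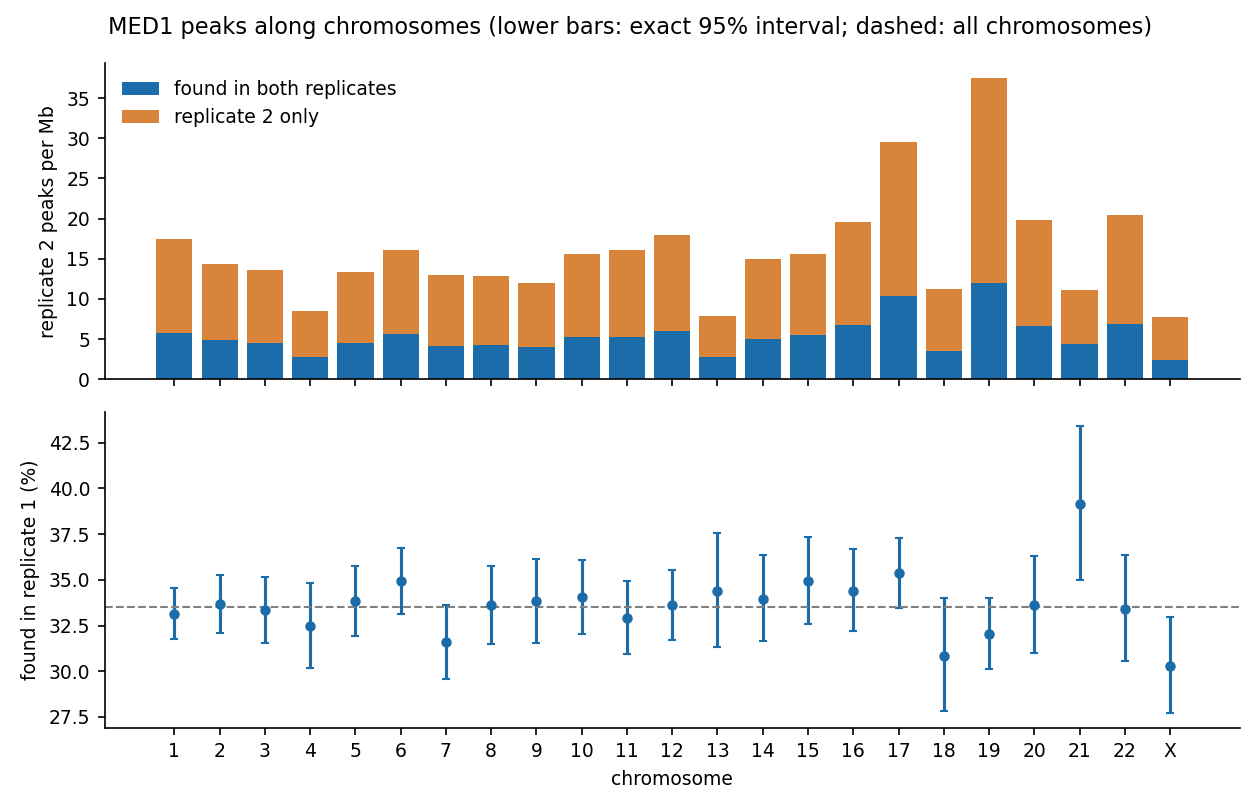
Upper panel, MED1 replicate 2 peaks per Mb on each chromosome, as bars that stack peaks found in both replicates (blue) and peaks of replicate 2 alone (orange). Lower panel, share of replicate 2 peaks found in replicate 1, in percent, with exact 95% intervals and the share of all chromosomes, 33.5%, as a dashed line. Density peaks on chromosomes 19 and 17, whereas the share stays within 30.3% to 39.1%.

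At a finer scale MED1 was concentrated. Of 3046 bins of 1 Mb, 1014 held no region found in both and the median bin held 2. In 625 bins there was no replicate 2 peak at all, and gaps in the sequence of the build were not removed from the bins. The fullest 10% of bins, 305, held 41.9% of the regions. The fullest 10% for peaks of replicate 2 alone held 36.1% of that class. That class is larger, with 29935 peaks against 15007 regions, so the 2 shares are not on equal terms. The most regions in a bin were 47, reached on chromosome 16 from 11 to 12 Mb and on chromosome 11 from 65 to 66 Mb. Next were 45 on chromosome 19 from 2 to 3 Mb and on chromosome 17 from 76 to 77 Mb, and 44 on chromosome 20 from 52 to 53 Mb. None of these 5 bins contained 1 of the 10 first stretches. Bins full of peaks had somewhat higher recurrence. The share found in replicate 1 was 23.2% in bins with 1 to 5 replicate 2 peaks, 31.4% in bins with 11 to 20 and 36.5% in bins with 41 or more. There were 389 bins with peaks of replicate 2 alone and no region found in both.

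Set against the other 4 libraries, neither the grouping nor the width of MED1 peaks passed an exact test, and with 2 libraries against 4 no difference could. Stitched list by list, 67.7% of MED1 replicate 1 peaks and 77.2% of replicate 2 peaks lay in stretches of 2 or more, a mean of 72.5% ± 6.77 (SD, n = 2). The NIPBL and SMC1A libraries had 58.6% to 65.5%, with a mean of 62.2% ± 3.55 (SD, n = 4). By protein, replicates 1 and 2 had 65.5% and 59.6% for NIPBL and 58.6% and 64.9% for SMC1A. Pooling 2 proteins mixes differences between proteins with those between libraries, in this SD, in that for width and in the permutations. MED1 was 10.3 percentage points higher, at a two-sided exact permutation p of 0.133 (adjusted over 2 comparisons, 0.267), the smallest that 2 libraries against 4 can give. The difference was 5.52 points without MED1 replicate 2, 15.6 points when stitched at 5 kb, 5.58 points at 25 kb, and 20.3 points, with an exact permutation p of 0.4, with the same number of peaks in every list. Median peak widths were 342 and 419 bp in MED1, a mean of 380.5 ± 54.4 (SD, n = 2), and 311 to 354 bp in the others, a mean of 334.75 ± 19.9 (SD, n = 4). That difference of 45.75 bp did not pass (two-sided exact permutation p = 0.4, adjusted p = 0.4). It rested on MED1 replicate 2, as it was 7.25 bp without it and 84.25 bp without MED1 replicate 1. With the same number of peaks in every list it was 137.5 bp, and with a −log10 q of at least 5 it was 74 bp. Broad peaks were more frequent in both MED1 lists than in any other, a difference that was not tested. Peaks over 2 kb made up 1.29% and 2.72% of the MED1 lists, against 0.252% and 0.0456% of the NIPBL lists and 0.0460% and 0.0821% of the SMC1A lists.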

How the data were processed

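MED1, NIPBL and SMC1A were mapped by ChIP-seq in untreated GM12878 cells, fixed with 1% formaldehyde for 10 min per the labels' protocols, with 2 libraries per protein and a pool of 2 WCE libraries as control. Build hg19, Trimmomatic 0.33, BWA 0.7.12 and MACS2 2.1.0 are listed in the submitters' processing notes, with no settings given. The authors deposited 1 narrowPeak list per library, with fold enrichment as a ratio to the control, −log10 p- and q-values and an integer score (not used), the format per the file names and values.

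From these lists, overlaps of at least 1 bp, merged regions, stretches stitched at 12500 bp, the slope-1 point and 1 Mb bins were computed with Python 3.11.15, numpy 2.4.6, pandas 2.3.3, scipy 1.17.1 and matplotlib 3.10.9. Fragments and control at each summit were solved from fold and p, assuming the Poisson test and pseudocount of MACS2. All solved values were whole within 0.05. The lists hold no read totals, so peaks under the authors' threshold were not analysed here. The steps were tested on simulated peaks.

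Positions named in the text are the 5 strongest regions by mean percentile, the 3 widest, the 5 strongest peaks of replicate 2 alone, the 3 strongest of replicate 1 alone, the 10 first stretches by mean rank and the 5 fullest bins. Members and lists were chosen with earlier results of these data known. The chromosome 6 window and the strongest 1% were chosen after values were seen. MED1 was compared with the other 4 libraries by exact permutation, with Benjamini-Hochberg adjustment over 2 comparisons. The alternatives changed the overlap rule, q threshold, list length, stitching distance, ranking measure, sequences used and replicates. No hg19 annotation or genome was used, so genes, promoters and sequences were not analysed here. Stretches were not called super-enhancers, since promoter regions were not removed and reads were not used.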

Additional observations from a re-analysis of the deposited data

Results flagged for a closer look

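Outside chromosomes 1 to 22 and X, which none of the comparisons used, the MED1 lists held 29 peaks in replicate 1 and 37 in replicate 2. They were singled out because they are signal called over the WCE pool in data that the main measurement left out. Of them, 9 and 8 were mitochondrial and 12 and 10 lay on the unplaced sequence GL000220. The highest fold enrichments were 13.3 in replicate 1 and 24.5 in replicate 2. The NIPBL lists held 39 and 12 such peaks and the SMC1A lists 54 and 58. A cause was not tested.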

How the results depend on the processing

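The share of MED1 replicate 1 peaks found in replicate 2 was 98.4% with 50% of the shorter peak covered, 76.8% with summits at most 200 bp apart and 99.3% at −log10 q of at least 5. With replicate 2 cut to the length of replicate 1 it was 84.3% by fold and 86.9% by −log10 p. The share of replicate 2 peaks found in replicate 1 was 30.9% by the summit rule, 31.5% at the stricter q, and 68.7% and 71.0% under the cuts by fold and by −log10 p, which remove weak peaks of replicate 2 by construction. In that order, the difference in median fold was 3.51, 3.68, 2.12 and 2.03, the ratio of median widths 2.20, 2.11, 1.83 and 1.66, and the median summit distance 38, 38, 39 and 39 bp. Regions with 2 or more replicate 2 summits were 0.0334% at 50% coverage and 0.0216%, 0.335%, 0.209% and 0.187% under those 4. The share of regions in stretches of 2 or more was 44.0% at 5 kb, 68.0% at 25 kb and 53.4% at the stricter q. Leaving out 1 replicate, which stitches all peaks of the other, gave 67.7% to 77.2%. The first 5% of stretches held 23.1% at 5 kb, 30.3% at 25 kb, 35.2% by −log10 p, 48.2% by fold times width, 25.1% with only the strongest peak of each region summed (added after seeing the data), and 27.6% to 30.2% with 1 replicate left out. Stretches past the slope-1 point numbered 847.5 at 5 kb, 316.5 by fold times width, and 563 to 1230 with 1 replicate left out (1230 without replicate 1). The causes of these shifts were not tested. Density ratios stayed between 4.81 and 5.09. Under alternatives added after seeing the data, regions found in both numbered 11359 to 15026. No value reversed direction.

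With the replicate number as a block, MED1 minus the other 4 libraries was 45.75 bp in median width and 10.3 points in the share of grouped peaks, as without it. Within numbers 1 and 2 these were 5 and 86.5 bp, and 5.62 and 15.0 points. The labels tie the numbers to no shared batch, so they were not taken as pairs. Shares between the 2 lists need both, so leaving out a replicate was not possible for them.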
